A study of Mus musculus with 16 samples.

Results

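Of the 25054 genes in a table of RNA sequencing counts from 16 mouse osteosarcomas, 1448 are typed as processed pseudogenes. The 27 of these with a total of at least 1000 counts over the 16 tumors, and no mt- in their name, are described here. No processed pseudogene of the table carried mt- in its name, so the total alone chose the members, and it is reported as a description without a test. Together the 27 held 29.1% of the counts on processed pseudogenes and 0.0425% of all counts. The 3 members with the lowest totals were *Gm7964* with 1114 counts, *Rps3a2* with 1020 and *Rpsa-ps10* with 1008. Just under the limit were *Gm4942* with 994, *Rps23-ps1* with 988 and *Gm6611* with 984.

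A processed pseudogene arises when the reverse transcriptase of a LINE element copies a spliced messenger RNA into the genome. The copy carries no introns and usually no promoter of its own, and genes that are strongly transcribed in the germline, such as those of ribosomal proteins, have left many such copies. Transcription of a copy, where it occurs, often starts from a host gene or a nearby promoter. Because a young copy and its parent share most of their sequence, a short read can often be placed on either.

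All mice carried the OsxCreERT2 transgene in 1 copy and floxed alleles of p53 and *Rb1* in both copies (OsxCreERT2+/-;p53fl/fl;Rb1fl/fl). The 8 tumors labeled KO, from 8 mice, also carried Arid1afl/fl, and the 8 tumors labeled WT did not. All animals received 400 μg of tamoxifen per gram at 1 month of age, were over 6 months old at harvest and were of both sexes. The promoter of *Osterix* drives this Cre in pre-osteoblasts, and the deletions are limited to cells in which it was active. Animal codes in the labels assign the WT tumors to 4 mice, with 4 tumors from N42 (right pelvis, right femur, left limb, left shoulder), 2 from N43 (spine, pelvis) and 1 each from N215 (right hind limb) and N25 (lung). A body site is given for WT tumors alone. No date or batch is given for any tumor, so no comparison could be repeated within batches. The paper describes 1 reference and 1 aligner for its RNA sequencing. It does not state by group whether KO and WT tumors shared the index and the run. How reads are placed between a copy and its parent depends on the alignment, so genotype and any such difference in processing cannot be told apart in the counts and shares below.

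Counts on genes ranged from 1109487 to 15059640 per KO tumor and from 7806160 to 16962329 per WT tumor, and 2 KO tumors, Massa and Grilka, were the shallowest. Genes of ribosomal RNA took 4373 to 183700 counts per 1000000 (CPM) in KO and 974 to 15750 in WT. *Arid1a* did not pass the test between the groups (log2 fold change 0.16 ± 0.22 SE, edgeR adjusted p = 0.714), and since the count spans the whole gene, it does not check the labels. The summed level of 10 osteoblast genes ranged from 446 to 42390 CPM in KO and from 1846 to 54810 CPM in WT, and of these genes 6 had more than 3 counts in Massa. *Sp7*, *Bglap* and *Bglap2* were at 0 in Massa, *Dmp1* in Prince, and *Bglap* and *Bglap2* in N215. Genes of other tissues were high in single tumors, skeletal muscle genes in Oregon and Montana, lung genes in Massa and the lung tumor of N25, salivary gland genes in Prince and liver genes in Zelda. Of 6 macrophage genes, 5 were called lower in KO, as were 2.15% of all genes tested. Their sums were 120 to 372 CPM in KO and 243 to 1340 CPM in WT, where N25 (243) and N215 (357) were lowest. The test behind these calls treats WT tumors of 1 mouse as separate samples. In such bulk samples, fewer cells of a type and less RNA per cell cannot be told apart.

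The positions of the 27 members were taken from the GENCODE vM21 annotation of GRCm38, the build of the counts (mm10), and their transcripts were aligned to all protein-coding transcripts there. The 27 lie on 15 chromosomes and are 78 to 2370 bases long, and 26 consist of a single exon. For 26 members a parent gene was found on the same strand, with at least 90% identity over at least 90% of the member, and these belong to 24 parents. Identity to the parent ranged from 90.4% to 100% (median 99.4%), and 24 members were at least 95% identical. *Gm10736* (a copy of *Rpl41*), *Tpt1-ps3*, *Rpl38-ps2* and *Ptges3-ps* did not differ from their parents at any base. *Gm13394* (*Gapdh*), *Gm12191* (*Rpl30*) and *Atp6v0c-ps2* (*Atp6v0c*) each differed at 1 base.

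The reads were 50 bases long, so each member was divided into all its windows of 50 bases and each window was looked up in the parent and in all other annotated transcripts. None of the windows of the 4 identical copies, and all windows of *Gm7497*, a diverged *Gapdh* copy, differed from the parent. In 6 members, *Gm12191*, *Rpl34-ps1* and the 4 identical copies, every window also occurred in some other gene, so that a read of 50 bases without errors can be placed on them and elsewhere alike. Their counts, and those of the other close copies, are uncertain for this reason. The bars for the 7 members called between KO and WT tumors, which are described further on, ran from 12.02% to 60.55% of windows.

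**Figure D1:**
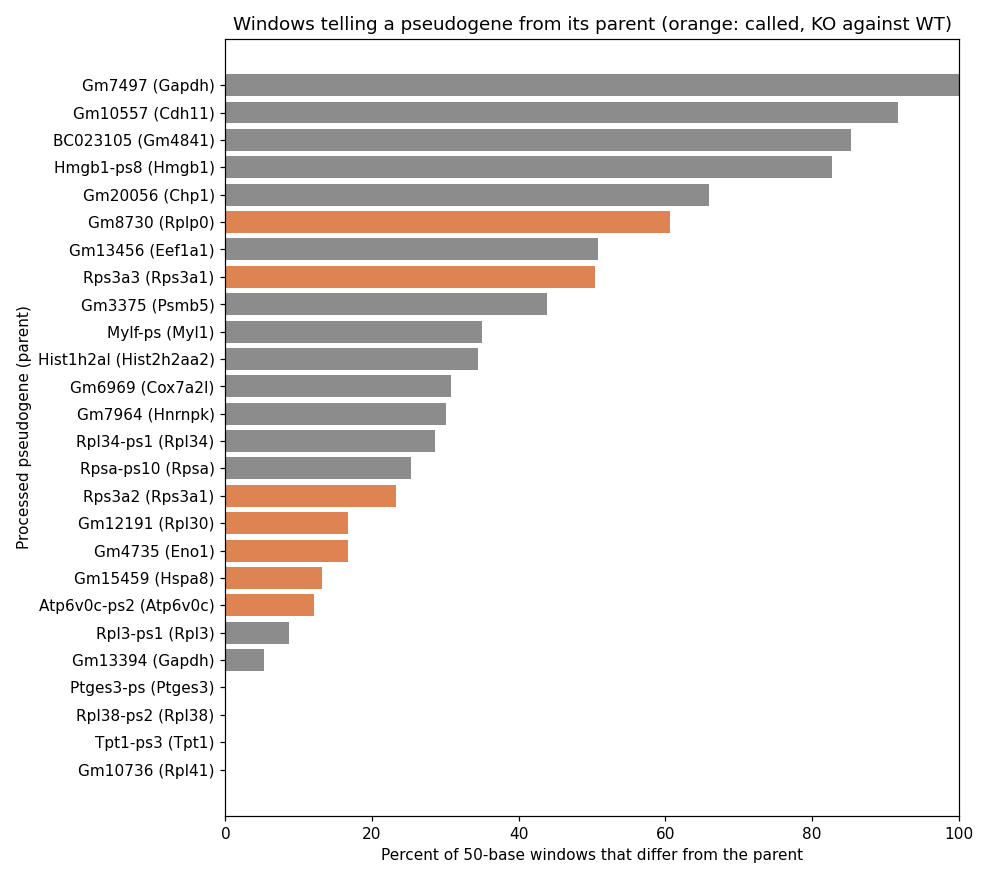
Percent of the 50-base windows of each processed pseudogene that differ from its parent gene (x axis), for the 26 members with an assigned parent (y axis, parent in parentheses). Orange bars mark the 7 members called between KO and WT tumors, and the 4 members at 0 are identical to their parents.

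The sequences below show how little separates the members that carry the results from their parents. Each pair is a window of 50 bases inside the coding sequence of the parent, 5′ to 3′ on the strand of the gene, from GENCODE vM21. Capitals mark the bases that differ, and the window with the most differences was taken. The *Rps3a3* window lies at chr13:108670815-108670864 (plus strand), in an intron of *Pde4d*, and differs at T4C and T48C, with positions counted from 1 at the 5′ end of the window and the parent's base first.
Rps3a1: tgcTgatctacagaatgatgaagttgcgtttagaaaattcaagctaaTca
Rps3a3: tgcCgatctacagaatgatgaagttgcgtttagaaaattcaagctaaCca
The window of *Rps3a2*, the second copy of *Rps3a1*, lies at chr14:88123129-88123178 (minus strand) and differs at A15T and T38C.
Rps3a1: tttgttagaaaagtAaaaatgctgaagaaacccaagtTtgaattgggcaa
Rps3a2: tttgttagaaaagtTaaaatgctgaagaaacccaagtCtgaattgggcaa
*Gm15459*, the copy of *Hspa8*, is shown at chr5:5783418-5783467 (minus strand), where it carries G26A, 1 of 5 differences in 1941 bases.
Hspa8: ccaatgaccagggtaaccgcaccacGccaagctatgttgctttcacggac
Gm15459: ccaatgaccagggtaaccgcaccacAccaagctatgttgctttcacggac
*Gm8730*, the copy of *Rplp0*, is shown at chr8:102865384-102865433 (minus strand), with A25G and A28G.
Rplp0: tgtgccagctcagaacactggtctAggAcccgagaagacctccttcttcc
Gm8730: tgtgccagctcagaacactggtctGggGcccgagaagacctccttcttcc
*Gm12191*, the copy of *Rpl30*, lies in an intron of *Cnot6* at chr11:49678938-49678987 (minus strand), and its only difference is G26A.
Rpl30: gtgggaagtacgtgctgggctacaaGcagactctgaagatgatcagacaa
Gm12191: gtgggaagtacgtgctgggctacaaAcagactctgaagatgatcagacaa
*Gm4735*, an enolase copy assigned to *Eno1*, is shown at chr2:80838343-80838392 (plus strand), with T22C and C31T.
Eno1: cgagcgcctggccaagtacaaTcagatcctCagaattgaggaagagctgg
Gm4735: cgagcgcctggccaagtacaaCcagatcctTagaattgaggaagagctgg
*Atp6v0c-ps2* is shown at chr6:37806171-37806220 (plus strand) with its only difference, T26C.
Atp6v0c: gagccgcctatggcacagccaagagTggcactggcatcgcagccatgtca
Atp6v0c-ps2: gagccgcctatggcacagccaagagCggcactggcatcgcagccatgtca
*Gm13394*, the copy of *Gapdh* with counts in some mice and at most 1 count per tumor in others, lies in an intron of *Cfap77* at chr2:28934240-28934289 (minus strand), and its only difference is A26C.
Gapdh: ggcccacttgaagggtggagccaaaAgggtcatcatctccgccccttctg
Gm13394: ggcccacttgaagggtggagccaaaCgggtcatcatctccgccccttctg
*Gm10736*, at chr13:111593534-111593611 (minus strand), is given whole as an example of a copy that cannot be told from its parent, *Rpl41*, by any of its 78 bases.
Gm10736: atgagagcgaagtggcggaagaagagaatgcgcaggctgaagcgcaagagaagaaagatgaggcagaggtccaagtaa

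By parent, 9 members are copies of cytosolic ribosomal protein genes and hold 43.55% of the members' counts. The single copy of a chaperone gene, *Gm15459*, held 15.5%, and 3 copies of glycolysis genes held 8.91%. A further 3 copies of chromatin and nuclear genes held 5.17%, and 2 copies of translation factor genes 5.165%. Copies of other genes (*Atp6v0c*, *Ptges3*, *Cdh11*, *Psmb5*, *Chp1* and *Gm4841*) number 6 and held 13.4%. The remaining 3 are *Mylf-ps*, a copy of the muscle gene *Myl1*, *Gm6969*, a copy of the respiratory chain gene *Cox7a2l*, and *Gm20008*. *Gm20008* had no parent under these limits, and its best match was *Gm13212* at 74.8% identity.

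Between KO and WT tumors, 7 of the 27 members passed an adjusted p of 0.05 in edgeR, fitted on the whole table, where 4.01% of the 15413 genes tested passed. The total over all tumors chose the members, and the called ones reached 1000 counts mostly through the group in which they are high, so nothing is read from their number against that share. In the lower group the total was 14 counts for *Gm4735*, 61 for *Atp6v0c-ps2*, 110 for *Rps3a3*, 174 for *Gm8730*, 197 for *Gm15459*, 225 for *Rps3a2* and 227 for *Gm12191*. Higher in KO were 2 members, against 1.86% of all genes, and lower were 5, against 2.15%. The median log2 fold change over the members was −0.01, and 0.10 over all genes tested. In 5 of the called members no KO value reached the WT range or the reverse, as was so for 0.415% of all genes. These members were already called, so nothing is read from their number against that percentage. For *Gm4735*, 1 of the 5, 3 counts in Massa amount to 6.69 CPM, above its lowest WT level of 5.01 CPM. The test treats WT tumors of 1 mouse as separate samples. The 3 calls of *Rps3a3*, *Rps3a2* and *Gm15459* held without the tumors of N42, with counts summed per mouse and with the ribosomal RNA content as a covariate, and the other 4 were lost in each of these. The log2 fold changes of the lost calls, in the same order, were −2.92, −2.75 and −3.40 for *Gm8730* (−2.81 with all tumors), −3.24, −2.94 and −4.21 for *Atp6v0c-ps2* (−3.13), −4.35, −4.91 and −4.46 for *Gm4735* (−5.26), and −1.15, −1.57 and −1.37 for *Gm12191* (−1.85).

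**Figure D2:**
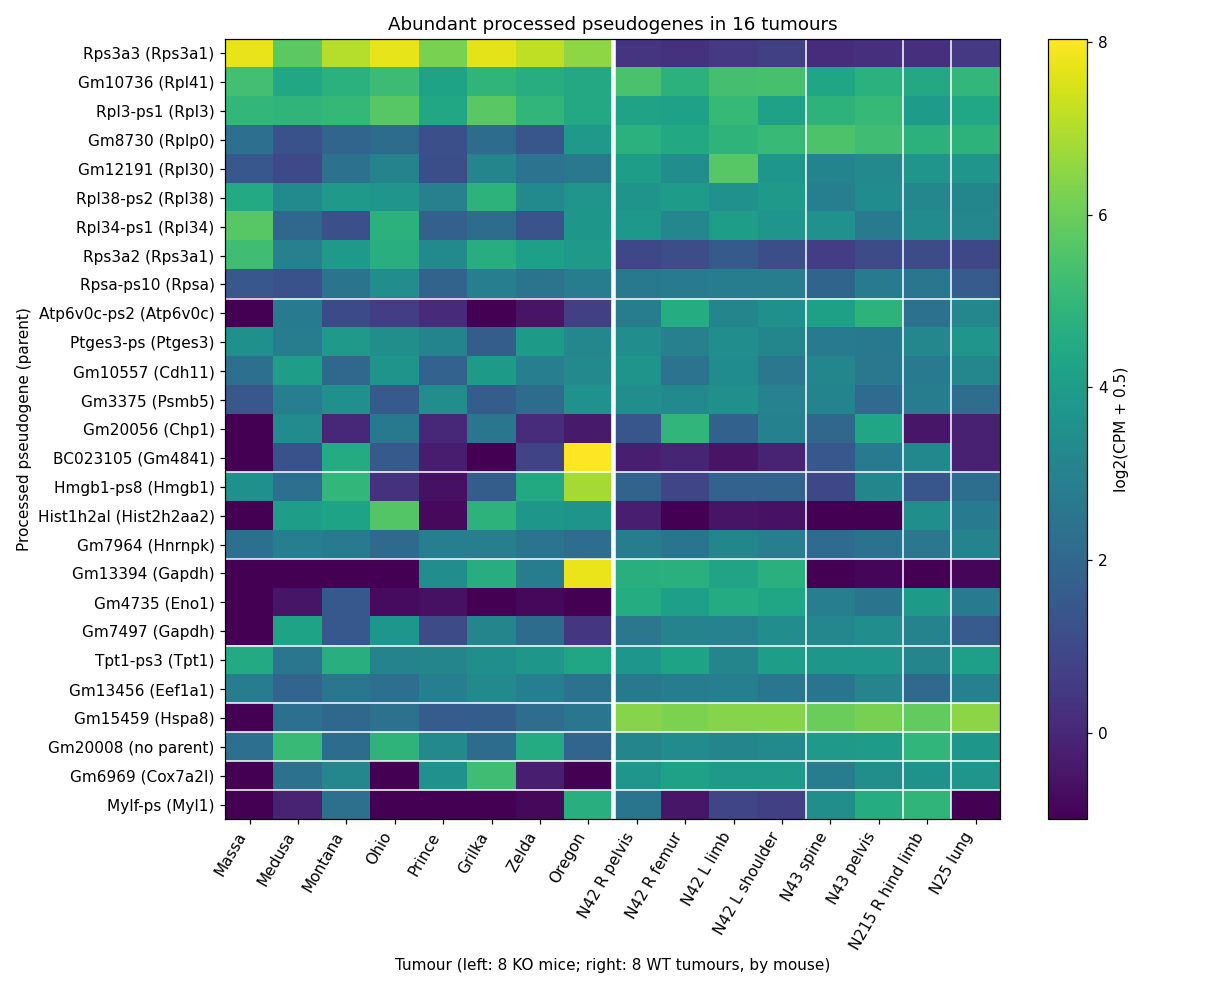
Level of each of the 27 members, as log2(CPM + 0.5) in color, in the 8 KO tumors (left of the thick line) and the 8 WT tumors (right, ordered by mouse, with thin lines between mice). Rows are grouped by the family of the parent. *Rps3a3* and *Rps3a2* are bright in all KO tumors, *Gm15459* in all WT tumors, and *Gm13394* in all 4 tumors of N42.

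The largest contrast was in the copies of *Rps3a1*, which encodes a protein of the small ribosomal subunit. *Rps3a3* was at 53.4 to 214 CPM in KO (median 137) and at 0.604 to 1.12 CPM in WT (median 0.758), where CPM are relative to the TMM-normalized library size. All 8 KO tumors lay above all WT tumors. The mean was 139 ± 63.9 CPM in KO and 0.798 ± 0.171 CPM in WT (SD, n = 8 each), with a log2 fold change of 7.42 ± 0.37 (SE, edgeR adjusted p = 2.72e-09). In WT this rested on 6 to 19 counts per tumor. *Rps3a2* was at 7.18 to 37.9 CPM in KO (median 15.3) and at 1.04 to 2.42 CPM in WT (median 1.596). Again the groups did not overlap, and the log2 fold change was 3.46 ± 0.36 (SE, edgeR adjusted p = 5.85e-05).

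The parent moved the other way. *Rps3a1* was at 97.8 to 342 CPM in KO and at 322 to 559.8 CPM in WT (log2 fold change −1.06 ± 0.27 SE, edgeR adjusted p = 0.0366). Without the tumors of N42 it was −0.84 (adjusted p = 0.603), and 14 of 26 alternatives did not call it. As a share of the counts on *Rps3a1* and *Rps3a3*, *Rps3a3* took 30.7% to 48.7% in KO and 0.162% to 0.258% in WT. For *Rps3a2* and *Rps3a1* the share was 5.61% to 14.4% in KO and 0.323% to 0.431% in WT. Both differences in log2 ratio had the smallest p that an exact two-sided permutation over all splits of the tumors can give (p = 0.000155, unadjusted, 16 such ratios tested). This permutation treats WT tumors of 1 mouse as separate samples. With counts summed per mouse the permutation p was 0.00202 for both. Called members were named for their calls in these same counts, so their permutation p-values here and below are not separate support. The sum of the 3 genes did not pass the test, with 180.2 to 577.5 CPM in KO and 323.6 to 563.1 CPM in WT (log2 fold change −0.24 ± 0.28 SE, edgeR adjusted p = 0.653). *Pde4d*, in whose intron *Rps3a3* lies, ranged from 12.1 to 313 CPM in KO and from 23.4 to 77.8 CPM in WT and was not called (edgeR adjusted p = 0.292).

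**Figure D3:**
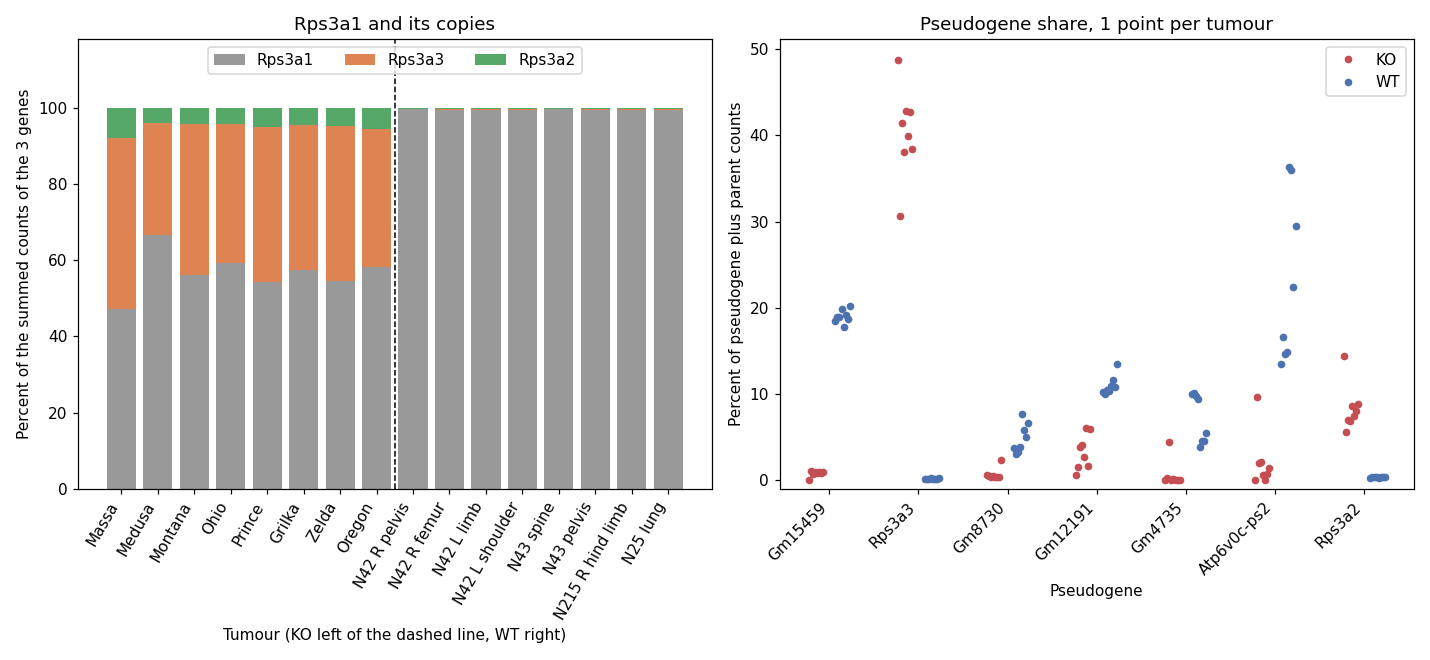
Left, percent of the summed counts of *Rps3a1* (gray), *Rps3a3* (orange) and *Rps3a2* (green) in each tumor, KO left of the dashed line. Right, percent of pseudogene plus parent counts that fell on each of the 7 called members, 1 point per tumor (red KO, blue WT). *Rps3a1* took 47.2% to 66.6% of the 3 genes in KO and 99.3% or more in WT.

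Of the other ribosomal protein copies, 2 were lower in KO. *Gm8730* is a copy of *Rplp0*, which encodes a protein of the ribosomal stalk. It was at 1.83 to 13.98 CPM in KO (median 3.67) and at 21.75 to 44.8 CPM in WT (median 28.6). The groups did not overlap, and the KO tumor nearest to WT was Oregon (log2 fold change −2.81 ± 0.41 SE, edgeR adjusted p = 0.00251). Its share of the counts on *Rplp0* and *Gm8730* was 0.362% to 2.405% in KO and 3.10% to 7.72% in WT (exact permutation p = 0.000155). With counts summed per mouse the permutation p was 0.00202. *Rplp0* itself had a log2 fold change of 0.06 ± 0.27 (SE, edgeR adjusted p = 0.921).

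*Gm12191* is a copy of *Rpl30*, a gene of the large subunit. None of its 50-base windows is its own, and 15 other pseudogenes share some of them, so its counts cannot be tied to this copy by sequence. It was at 1.48 to 8.06 CPM in KO (median 4.90) and at 7.86 to 50.9 CPM in WT (median 12.5). The highest KO tumor, Grilka, lay just above the lowest WT tumor, N43 spine, and the left limb tumor of N42 stood far above the rest of WT. The log2 fold change was −1.85 ± 0.47 (SE, edgeR adjusted p = 0.03725). Leaving out Medusa, Montana, Prince, Oregon or any 1 of the 4 tumors of N42 ended the call, with adjusted p-values from 0.0524 to 0.0780. The share of *Gm12191* in the counts with *Rpl30* did not overlap, at 0.654% to 6.06% in KO and 10.04% to 13.45% in WT (exact permutation p = 0.000155, and 0.00404 with counts summed per mouse). In the left limb tumor of N42 that share was 10.4%, as *Rpl30* also had its highest level there, 437 CPM. *Cnot6*, the host of *Gm12191*, was not called (log2 fold change −0.25 ± 0.32 SE, edgeR adjusted p = 0.693).

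The other 5 ribosomal protein copies were not called. *Gm10736*, the most abundant of them by total, was at 18.6 to 40.15 CPM in KO and 20.1 to 42.5 CPM in WT (log2 fold change −0.23 ± 0.24 SE, edgeR adjusted p = 0.593), and its share with *Rpl41* was 10.45% ± 1.995 in KO and 10.9% ± 0.643 in WT (SD, n = 8 each). *Rpl3-ps1*, a copy of the large subunit gene *Rpl3*, was at 20.6 to 52.4 CPM in KO and 15.2 to 32.6 CPM in WT (0.55 ± 0.26 SE, edgeR adjusted p = 0.214). *Rpsa-ps10*, a copy of *Rpsa*, was at 1.90 to 10.3 CPM in KO and 2.52 to 6.61 CPM in WT. Its log2 fold change was −0.01 ± 0.36 (SE, edgeR adjusted p = 0.989), and its sign changed with the normalization. The levels of these 3 copies overlapped broadly between the groups. Among the 87 cytosolic ribosomal protein genes themselves, which are the pathway of these parents, 2 were called (2.30%, against 4.01% of all genes tested). These were *Rps3a1*, lower, and *Rpl29*, higher (log2 fold change 1.795, edgeR adjusted p = 0.0293). The median over the 87 was 0.07.

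*Gm15459* had the most counts of all members. It is a copy of *Hspa8*, which encodes a constitutive cytosolic chaperone, and it overlaps an exon of the noncoding gene *Gm26825* on the opposite strand. It was at 0 to 5.31 CPM in KO (median 3.85) and at 57.85 to 87.3 CPM in WT (median 79.6). Every WT tumor lay above every KO tumor. The log2 fold change was −4.35 ± 0.30 (SE, edgeR adjusted p = 3.02e-07). *Hspa8* was at 286 to 516 CPM in KO and 252 to 369 CPM in WT (0.34 ± 0.20 SE, edgeR adjusted p = 0.334), and the sum of both had a log2 fold change of 0.04 ± 0.21 (SE, edgeR adjusted p = 0.926).

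The share of *Gm15459* in the counts with *Hspa8* was narrow within each group, 0.805% ± 0.341 in KO and 19.0% ± 0.772 in WT (SD, n = 8 each, exact permutation p = 0.000155, and 0.00202 with counts summed per mouse). The WT values were 17.75% in N43 spine and 19.1% in N43 pelvis, 18.5% to 19.9% in the tumors of N42, 18.7% in N215 and 20.2% in N25. In Massa, which had 0 counts of *Gm15459* among 148 on both genes, a count of 0 allows a share of up to 2.03%, a limit that covers counting error only. The 8 WT tumors thus lay close together, and the limit in Massa was below all of them. Only 22 of the 1892 windows of *Gm15459* were its own, and 1870 occurred in another gene. Some windows were shared with 11 other pseudogenes, so most of its sequence cannot tie a read to this copy.

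The copies of glycolysis genes are *Gm4735* (assigned to *Eno1*), *Gm13394* and *Gm7497* (both *Gapdh*), and of these *Gm4735* was called. Enolase and glyceraldehyde-3-phosphate dehydrogenase, the products of the parents, act in the lower part of glycolysis. *Gm4735* was at 0 to 2.30 CPM in KO (median 0.0816) and at 5.01 to 23.8 CPM in WT (median 15.7). Montana, with 9 counts, was the only KO tumor with more than 3 counts, and the groups did not overlap (log2 fold change −5.26 ± 0.79 SE, edgeR adjusted p = 0.00299). Without the tumors of N42 the value was −4.35 (adjusted p = 0.216). Its share with *Eno1* was 0.223% or less in 7 KO tumors, 4.50% in Montana and 3.84% to 10.1% in WT, so that Montana lay inside the WT range. In Massa, with 0 of 32 counts, the depth allows a share of up to 9.375%, so the zero there does not separate it from WT, and its 3-count limit of 6.69 CPM is also above the lowest WT level. By sequence *Gm4735* was closest to *Eno1b*, a second enolase gene, at 99.77% identity against 99.62% for *Eno1*. The scores were within 1% of each other, and *Eno1* was taken for its higher total (29266 against 4467 counts). As a share of the counts with *Eno1b*, a measure chosen after the data were seen, *Gm4735* took 33.2% to 43.3% in WT, 27.3% in Montana and 3.45% or less in the other KO tumors. Massa had only 3 counts on *Eno1b* and none on *Gm4735*, too few to give a limit. Of the 1253 windows of *Gm4735*, 1203 occurred in another gene.

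**Figure D4:**
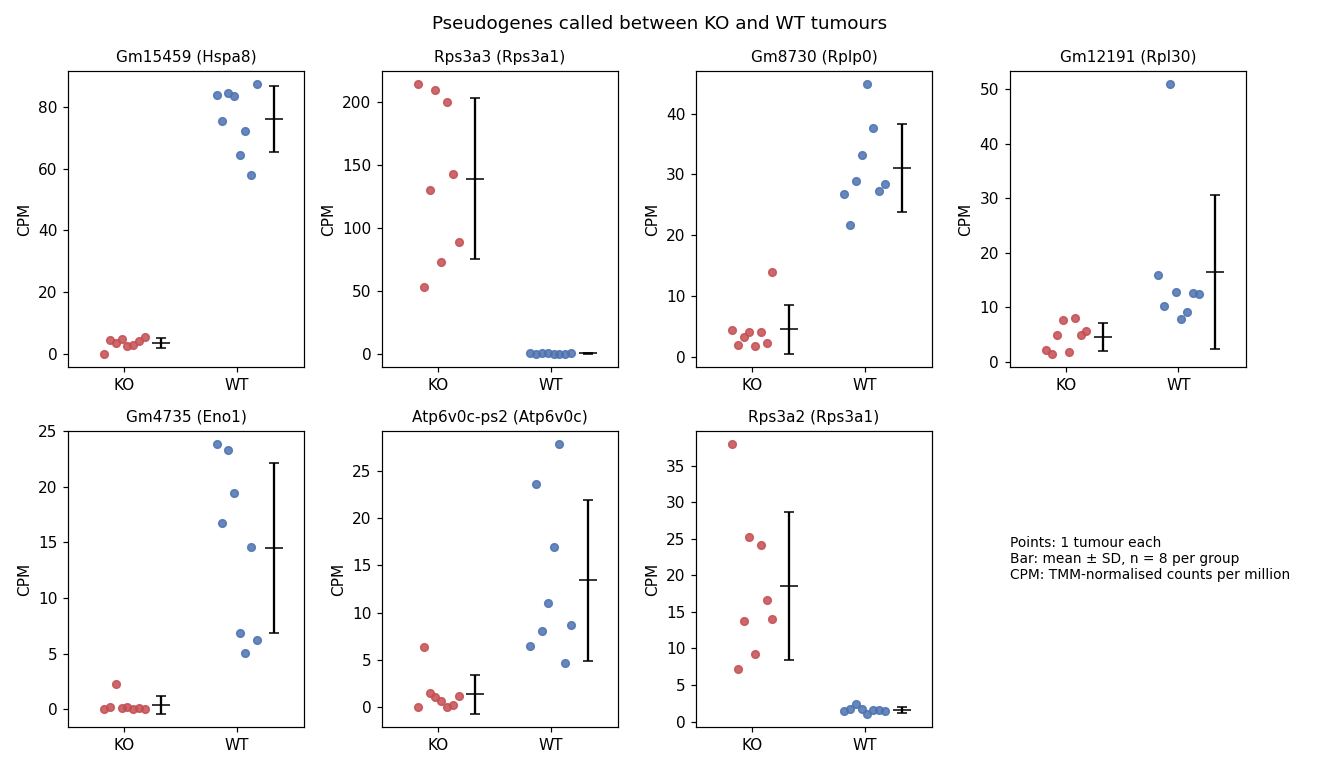
CPM of the 7 called members in the KO (red) and WT (blue) tumors, 1 point per tumor, with the mean ± SD of each group (n = 8) as a bar. The groups are apart in all panels except those of *Gm12191* and *Atp6v0c-ps2*, and *Gm12191* reaches 50.9 CPM in 1 WT tumor.

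*Atp6v0c* encodes a subunit of the proton pump of lysosomes and other vesicles. Its copy *Atp6v0c-ps2* was at 0 to 6.34 CPM in KO (median 0.815) and at 4.65 to 27.8 CPM in WT (median 9.845). Medusa was the KO tumor inside the WT range, and the log2 fold change was −3.13 ± 0.67 (SE, edgeR adjusted p = 0.0167). Without the tumors of N42 it was −3.24 (adjusted p = 0.310). The share with *Atp6v0c* was 0% to 9.68% in KO and 13.47% to 36.3% in WT (exact permutation p = 0.000155, and 0.00202 with counts summed per mouse). Within WT the share was 36.3% and 36.0% in the tumors of N43 and 13.47% to 16.7% in those of N42, a difference that was not tested. The level of *Atp6v0c-ps2* was not called among the WT mice (edgeR adjusted p = 0.1955) or between N42 and N43 (edgeR adjusted p = 0.463). In Massa and Grilka, both with 0 counts, the depth allows shares of up to 27.3% and 7.32%, so the zero in Massa does not separate it from WT.

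Over all 26 members with a parent, the shares of KO and WT tumors did not overlap for 6, *Rps3a3*, *Rps3a2*, *Gm15459*, *Gm8730*, *Gm12191* and *Atp6v0c-ps2*. For *Atp6v0c-ps2* this rests on the observed shares, as 0 of 11 counts in Massa allows up to 27.3%, above the lowest WT share, 13.47%. By the same parent rule, the shares did not overlap for 4.37% of 183 other processed pseudogenes that passed the filter on low counts, a set with fewer counts per gene. The 6 are called members, which entered the set mostly through counts of the group in which they are high. That choice favors shares that do not overlap, so nothing is read from their number against that percentage. None of the 4 copies identical to their parents was called. When the counts of each parent and its copies were summed, 0 of the 24 sums passed the test in edgeR, where 4% of all features tested did. At an unadjusted p under 0.05 there were 4, and DESeq2 called 1, the sum of *Hist2h2aa2* and *Hist1h2al*. Of the 22 parents that passed the filter on low counts, 1 was called, *Rps3a1*. Among the other 1421 processed pseudogenes, 267 passed that filter and 18 were called, 12 higher and 6 lower in KO (6.74% of those tested).

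The 20 members not called include several that differed widely among KO tumors. *Hmgb1-ps8*, a copy of the gene for a chromatin protein, was at 0.166 to 112 CPM in KO (median 7.79) and at 1.36 to 8.27 CPM in WT (median 3.11). Oregon, Montana and Zelda were high, and Prince was at 2 counts. Its log2 fold change was 2.79 ± 0.91 (SE, edgeR adjusted p = 0.0835), the adjusted p was 0.0127 in DESeq2, which called 8 members and 12.5% of all genes, and 0.0457 without Prince. Without Oregon the log2 fold change was 1.62 (adjusted p = 0.266), and with limma-voom it was 0.65 (adjusted p = 0.926). The share of *Hmgb1-ps8* in the counts with *Hmgb1* reached 50.95% in Oregon and was 0.302% in Prince. *Gm7964*, a copy of *Hnrnpk*, was even, at 3.82 to 6.97 CPM in KO and 3.96 to 8.38 CPM in WT (−0.14 ± 0.26 SE, edgeR adjusted p = 0.8065). The 8 members whose levels are not described in detail had medians of 3.18 to 12.6 CPM in KO and 6.10 to 13.1 CPM in WT. None of them was called (edgeR adjusted p from 0.493 to 0.959). Of these, *Rpl34-ps1* was uneven, at 1.79 to 51.3 CPM in KO and 5.92 to 16.2 CPM in WT. *Gm7497* was at 0 to 18.4 CPM in KO, with the 0 in Massa, and at 2.52 to 10.3 CPM in WT.

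A member was taken as present in a tumor with more than 3 counts there. By this measure 6 members were present in all 16 tumors, 23 in all 8 WT tumors and 6 in all 8 KO tumors. The number present per tumor was 9 in Massa and 16 in Grilka, 23 to 25 in the other KO tumors and 25 to 27 in WT. In Massa 3 counts amount to 6.69 CPM and in Grilka to 4.03 CPM, against 0.146 to 0.340 CPM in WT, so absence there was not detectable at the levels of many members. Some gaps were larger than this limit, and they are given next.

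*Gm13394*, the *Gapdh* copy, was at 18.7 to 26.0 CPM in the 4 tumors of N42 and at 0 or 1 count in the other 4 WT tumors. Among KO tumors it was at 10.2 CPM in Prince, 24.2 in Grilka, 6.58 in Zelda and 216 in Oregon, and at 0 counts in Massa, Medusa, Montana and Ohio. Each tumor was thus either clearly positive or at most at 1 count. Between N42 and N43 the difference passed the test (edgeR adjusted p = 0.0153), and the N42 mean was at least 152-fold higher than 3 counts per library in N43. It was the only member called between these mice, where 0.0377% of all genes were called. Without N42 right pelvis, left limb or left shoulder the adjusted p was 0.0640, 0.0641 and 0.152. DESeq2 called 4 members between these mice, *Gm13394*, *BC023105*, *Gm4735* and *Mylf-ps*, and 3.76% of all genes.

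*Gapdh* itself was present throughout, so the zeros can be read against its counts. Positive tumors had 3.17% to 6.38% of the counts on both genes on *Gm13394*. The 2 genes differ at 1 base of the copy, so these shares alone do not show from which gene the reads came. In Montana there were 0 of 10494 counts, which allows a share of up to 0.0286%, and in N215 0 of 6699, which allows 0.0448%. In Ohio (0 of 2442), Medusa (0 of 1133) and N43 spine (0 of 5911) the limits were 0.123%, 0.265% and 0.05075%. In Massa the limit was 2.16%, still under the lowest positive tumor. Oregon had the highest *Gapdh* level, 4040 CPM, and a share of 5.08%, inside the range of N42. Between KO and WT the mean of *Gm13394* did not pass the test (log2 fold change 1.43 ± 1.54 SE, edgeR adjusted p = 0.617), and its sign changed without Oregon.

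**Figure D5:**
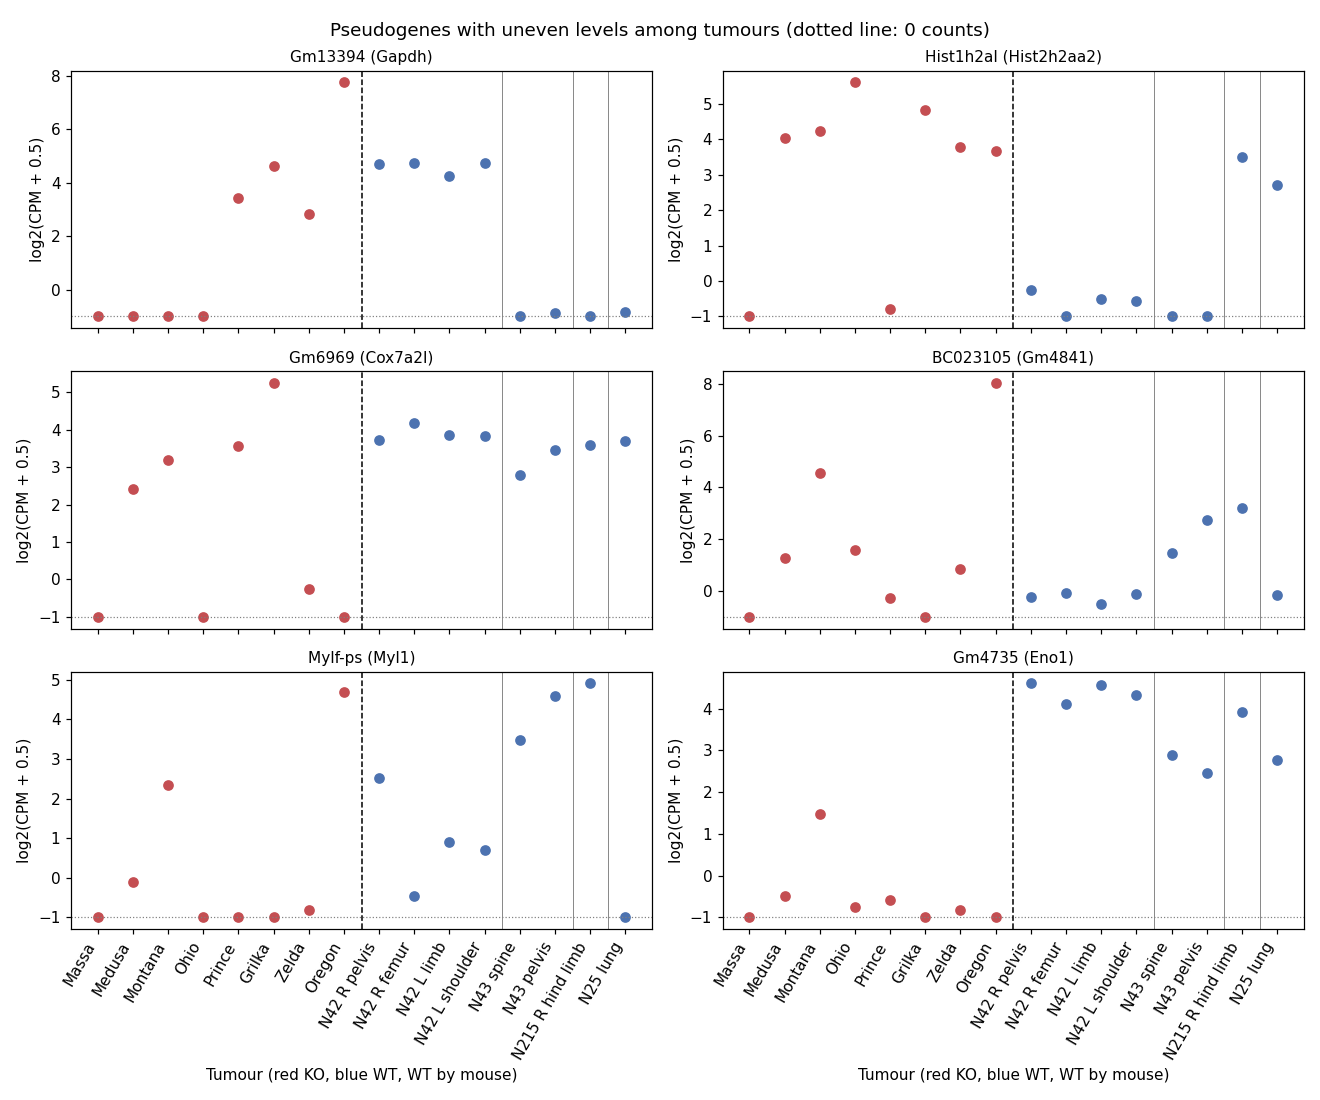
Level of 6 members, as log2(CPM + 0.5), in each tumor (red KO, blue WT, thin lines between WT mice; the dotted line is 0 counts). *Gm13394* is high in all 4 tumors of N42 and near 0 in the other WT tumors, and among WT tumors *Hist1h2al* is high in N215 and N25 alone.

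*Gm6969*, chosen for description after its values were seen, is a copy of *Cox7a2l*, which encodes a factor of respiratory chain assembly. It was at 6.43 to 17.55 CPM in all WT tumors and at 4.86 to 37.6 CPM in Medusa, Montana, Prince and Grilka. Massa, Ohio and Oregon had 0 counts, and Zelda had 5 counts. In Ohio 0 of 420 counts on both genes allows a share of up to 0.714% and in Oregon 0 of 251 allows 1.195%, against 11.1% to 18.55% in WT and 45.2% in Grilka. In Massa the limit was 3.45%. The KO tumors thus fell into positive and near-zero tumors, while all WT tumors were positive.

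*Hist1h2al*, typed as a pseudogene in the table, resembles the replication-dependent histone gene *Hist2h2aa2*. It was at 12.3 to 48.4 CPM in 6 KO tumors, at 0 counts in Massa and at 1 count in Prince. In WT it was at 10.8 CPM in N215 and 6.07 CPM in N25, and at 0 to 7 counts in the tumors of N42 and N43. The groups overlapped (log2 fold change 3.01 ± 1.29 SE, edgeR adjusted p = 0.174). It was the only member for which tumors of 1 mouse fell on both sides of 3 counts, in N42.

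*Mylf-ps* and *BC023105* were uneven in another way. *Mylf-ps* is a copy of *Myl1*, a myosin light chain of skeletal muscle, and was at 25.2 CPM in Oregon, 4.59 in Montana and 0.422 or less in the other KO tumors. In WT it was at 29.5 CPM in N215, 10.55 and 23.7 in N43, 0.227 to 5.25 in N42 and 0 in N25. The summed level of 8 skeletal muscle genes was highest in Oregon (126700 CPM), Montana (74020), N43 pelvis (7222) and N215 (5064), and was 8.004 CPM in N25. Their part in the levels of *Mylf-ps* was not tested. *BC023105*, whose closest coding gene is *Gm4841*, reached 262 CPM in Oregon and 23.2 CPM in Montana and was at 2.48 CPM or less in the other KO tumors. In WT it was at 8.73 CPM in N215, 2.25 and 6.27 in N43, and 0.202 to 0.454 in N42 and N25. In Massa and Grilka both members had 0 counts, and 3 counts amount there to 6.69 and 4.03 CPM, so low levels could not be seen. Neither member was called between KO and WT (edgeR adjusted p = 0.646 for *Mylf-ps* and 0.106 for *BC023105*).

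Among the 4 WT mice, edgeR called 6 members, *Gm13394*, *BC023105*, *Hist1h2al*, *Gm4735*, *Gm20008* and *Mylf-ps*, where 21.4% of the 21228 genes tested were called. The lowest adjusted p was 0.000478, for *Gm13394*, and the others ranged from 0.00736 to 0.0424. The spread in this test comes from the tumors of N42 and N43 alone, since N215 and N25 had 1 tumor each, and the single tumor is assumed to vary as those do. Apart from the pelvis, each labeled site occurs in 1 mouse, and there mouse and site cannot be told apart. At the pelvis, the site named in both N42 and N43, *Gm13394* had 521 counts in N42 and 1 in N43. *Gm20008* was at 8.08 to 9.77 CPM in N42, 14.1 and 15.3 in N43, 13.1 in N25 and 30.5 in N215, so that the ranges of the mice did not overlap. Its call was lost without N42 right pelvis (adjusted p = 0.0566) or left shoulder (0.0608). *Gm4735* was at 16.8 to 23.8 CPM in N42, 14.6 in N215, 6.26 in N25 and 5.01 and 6.87 in N43, and its share with *Eno1* was 9.48% to 10.1% in N42 and 3.84% to 5.47% in the other WT tumors.

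All 4 tumors of N42 were on the same side of 3 counts for 26 members, and both tumors of N43 for all 27. Since 23 members had more than 3 counts in every WT tumor, these numbers say little about the mice. Between the mice, N42 and N43 were on opposite sides for 1 member, *Gm13394*. The ratio of the highest to the lowest of the N42 tumors had a median of 1.57 over 26 members, and it was over 2 for 8 of them. For N43 the median was 1.43 over 25 members, with 5 over 2. The widest ratio in N42 with all tumors above 0 was that of *Mylf-ps*, 23.1, followed by *Gm20056*, a copy of *Chp1* chosen after its values were seen, with 14.2 and a peak of 30.3 CPM in the right femur. *Gm20056* also differed between the tumors of N43, at 3.46 CPM in the spine and 20.0 CPM in the pelvis.

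Over the members, the median SD of log2 CPM within N42 was 0.28, and the median SD of the 4 mouse means was 0.43. Over all genes tested these medians were 0.34 and 0.65. For 70.4% of the members the SD within N42 was below that of the mouse means, and for 78.9% of all genes.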

How the data were processed

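RNA of 16 osteosarcomas was sequenced from 1 end with 50 cycles after removal of ribosomal RNA. Per the paper and the labels, the authors aligned reads with Novoalign 2.08.01 to mm10 and splice junctions, kept the best of many alignments per read, counted with USeq and ran DESeq2 1.26.0. The deposited values are whole counts per gene, not normalized. The strand, and the annotation release of the gene types, are not given in the sources used here.

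Counts were fitted with edgeR 4.0.16 in R 4.3.3 (TMM, filterByExpr with a minimum count of 10 and total of 15, glmQLFit, glmQLFTest, two-sided, Benjamini-Hochberg over all genes tested, threshold 0.05), as designed in place of the study's DESeq2, which was an alternative (1.42.0), with limma 3.58.1 (voom, mouse as random effect, consensus correlation 0.76). In simulated data of the KO and WT comparison (15413 genes), edgeR called 128 of 192 changed genes tested and 4 unchanged ones. The simulated tumors were drawn independently, so this does not give the error rate where WT tumors share a mouse. Parents were found with blastn 2.17.0 against GENCODE vM21, and among scores within 1% of the best the gene with most counts was taken. Shares were tested as log2((member + 0.5)/(parent + 0.5)) by exact two-sided permutation of the tumors. The members and lists were chosen with earlier results of these data known. Members named are those called (up to 6 per direction), the 6 with the widest range among tumors, up to 5 called among WT mice, the 6 most abundant, the 3 nearest the limit on each side, and their parents.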

Additional observations from a re-analysis of the deposited data

Results flagged for a closer look

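There were 81 groups of 8 tumors (KO, WT) or 4 tumors (N42), for the 27 members. In 10 groups the gap of the highest or lowest tumor to its neighbor, as a part of the group's range, was over the 95% limit of Dixon's test. Chance alone flags about 1 in 20 groups. In N42 the right femur was low for *Gm15459* (gap 0.92, 75.5 CPM against 83.6), *Gm10736* (0.88, 27.7 against 40.4) and *Hmgb1-ps8* (0.969, 1.36 against 3.08). The left limb of N42 was high for *Rpl3-ps1* (0.935, 32.4 CPM against 18.1) and low for *Gm13394* (0.923, 18.7 against 25.3). Over all WT tumors, the same left limb tumor was high for *Gm12191* (0.627, 50.9 CPM against 15.85), and N25 was low for *Gm7497* (0.541, 2.52 against 5.45).

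In KO, Massa was low for *Gm15459* (gap 0.801, 0 CPM against 2.57), where 3 counts amount to 6.69 CPM. Oregon was high for *Gm8730* (0.57, 13.98 CPM against 4.46) and Montana for *Gm4735* (0.698, 2.30 CPM against 0.211). Without Montana the log2 fold change of *Gm4735* between KO and WT was −6.97, and without Oregon that of *Gm8730* was −3.42.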

How the results depend on the processing

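No paired analysis was possible because KO and WT tumors came from different animals. The number of members called between KO and WT was 7 and fell to 3 without the tumors of N42, with counts summed per mouse and with a ribosomal RNA covariate. limma-voom with the mouse called 5, DESeq2 8, and leaving out 1 tumor 6 to 7. Over all genes the 618 calls became 2517 with DESeq2, 17 with limma-voom, 10 per mouse, 8 without N42, 7 with the covariate and 252 to 1348 without 1 tumor. The family sums, at 0, had 1 call with DESeq2 (a setting chosen after seeing the data), 1 without Massa and Grilka (*Eno1*) and 0 to 1 without 1 tumor. Among WT mice the 4536 genes became 6922 with DESeq2, 1814 without the lung tumor and 2157 to 4742 without 1 tumor. For N42 against N43 the 8 genes became 679 with DESeq2 and 0 to 32 without 1 tumor, and the 1 member became 4 with DESeq2 and 0 to 1. With presence set at more than 10 counts, 3 members were present everywhere in place of 6.

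Direction changed for members that were not called. The log2 fold change of *Gm10736* was 0.14 and of *Gm7964* 0.050 without N42. *Gm13394* turned to −1.88 with the covariate and ranged from −1.14 (without Oregon) to 1.68 without 1 tumor, and its log2 share difference from −0.33 to 1.32, below 0 in 7 such fits. *Gm20008* turned to −0.23 with limma-voom, −0.30 without N42, −0.17 per mouse, and ranged from −0.24 to 0.42 without 1 tumor. *Rpsa-ps10* turned to 0.049 with DESeq2, 0.036 with RLE and 0.037 with upper quartile scaling, 0.096 with limma-voom, 0.32 without N42, 0.26 with the covariate, 0.21 per mouse, and ranged from −0.27 to 0.11 without 1 tumor. With a pseudocount of 3 the share differences of *Gm7964* and *Rpsa-ps10* were 0.078 and 0.19. The causes of these changes were not tested. Depth limits presence in Massa and Grilka most.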
